A study of Mus musculus with 11 samples.

Results

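The TRIM family of ubiquitin ligases was followed through 11 RNA-seq libraries of BV2, a line of mouse microglia transformed in culture. Members were the rows whose gene symbol begins with Trim followed by a number, which gave 68 of the 36529 genes listed, and the rule uses no measured value. In the first experiment, 3 libraries of cells given an amino-terminal fragment of human apolipoprotein E4, residues 1 to 151 (nApoE4), at 25 µg/mL for 5 h are labelled ApoE4, and their 3 untreated controls are labelled ControlA. In the second, 2 libraries given the same stretch of apolipoprotein E3 (nApoE3) at the same dose and time are labelled ApoE3, and their 3 untreated controls are labelled ControlB. All groups are a single C57BL/6 cell line in culture. The fragments carry a 6xHis tag and differ at a single amino acid. The labels name a PBS vehicle for the untreated cells, whereas the methods of the study name conditioned media. Each fragment has its own controls, so fragment and experiment cannot be told apart. The labels do not say whether the libraries of a group came from separate cultures, while the study describes its transcriptome data as averages of independent trials without tying them to these libraries. The p-values measure the spread between these libraries, which may be technical.

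TRIM proteins carry a RING domain, B-boxes and a coiled coil, in that order from the amino terminus, and the RING domain of most members passes ubiquitin from an E2 enzyme to a substrate. The domain at the carboxyl end, most often PRY-SPRY, sets the class and what the protein binds. Many PRY-SPRY members are interferon-stimulated genes that restrict viruses or tune the sensing of viral RNA and DNA, and in microglia and macrophages several of them raise or dampen NF-kB and interferon signalling.

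The libraries of the nApoE4 experiment held 39732710 to 44162511 counts on genes and those of the nApoE3 experiment 55809688 to 69768666. The summed level of 14 microglial markers was 3720 to 4121 CPM (counts scaled to library size, within each experiment) in ControlA and 4310 to 4425 CPM in ApoE4. It was 2497 to 2615 CPM in ControlB and 3289 to 3308 CPM in ApoE3. Between the untreated groups, 9 of 12 of these markers tested were lower in ControlB (against 34.9% of all genes) and 1, Tmem119, was higher (against 34.4%). The part of this in the TRIM values was not tested. Csf1r was at a mean of 815 CPM in ControlA. Of the defining markers, P2ry12 had 0 counts in every library, and Aif1 and Cx3cr1 were at means of 0.0302 and 0.245 CPM in ControlA. Of 8 other cell types, the highest summed marker level in any library was 24.7 CPM, for oligodendrocyte markers. The neuron marker sum was 5.45 to 6.54 CPM in ApoE4 against 2.01 to 2.57 CPM in ControlA, and the part of this in the TRIM values was not tested. This rise was in Tubb3 alone, at means of 5.74 CPM in ApoE4 and 2.14 CPM in ControlA. Rbfox3, Map2, Snap25 and Syt1 had means of at most 0.0759 CPM in either group. These are bulk libraries, in which a change of level in every cell cannot be told apart from a change in the share of cells that express a gene.

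With each fragment, 12 members were over 2-fold higher, and the same 7 of them shared a promoter motif, so short stretches of promoter come first. RefSeq promoter windows of build GRCm38.p6, 250 bases before to 50 after an annotated start, were found for 53 of the 68 members. They were searched on both strands for TTTC, any 2 bases and TTTC again, an interferon-stimulated response element (ISRE)-like motif, which is the kind of site that interferon regulatory factors and the interferon-activated STAT complex bind. The motif was in the windows of 9 members (17%), against 3.8% of the 10356 genes tested in both experiments that have a window and 3.99% of all 27025 genes with one. Its share among other genes that rose past 2-fold was not computed. The 7 of these members that were over 2-fold higher with both fragments are shown, 5′ to 3′ on the gene's strand in windows of 30 bases, with the motif or its complement in capitals. They lie at chr7:104288136-104288165 (Trim5, minus strand), chr7:104315466-104315495 (Trim12a, minus), chr7:104353359-104353388 (Trim12c, minus), chr7:104465210-104465239 (Trim30a, minus), chr7:104507871-104507900 (Trim30d, minus), chr7:104244457-104244486 (Trim34a, plus) and chr7:102565447-102565476 (Trim21, minus).
Trim5: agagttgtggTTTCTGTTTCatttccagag
Trim12a: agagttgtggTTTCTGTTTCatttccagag
Trim12c: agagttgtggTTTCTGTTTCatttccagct
Trim30a: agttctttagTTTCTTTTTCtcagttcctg
Trim30d: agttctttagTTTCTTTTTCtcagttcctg
Trim34a: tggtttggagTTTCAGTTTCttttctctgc
Trim21: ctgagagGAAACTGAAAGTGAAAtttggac
The Trim5 and Trim12a windows were identical, as were those of Trim30a and Trim30d. The Trim12c window differed from those of Trim5 and Trim12a only in its last bases. These are therefore not independent occurrences, and the share of 17% counts such copies separately. The Trim21 window held 2 overlapping matches, on the complementary letters. The match began 11 bases past the annotated start in Trim12a and Trim34a and 14 past it in Trim21. It lay upstream of the annotated start in the other windows shown. For Trim5 that start is not the outermost one, and the window lies inside the span of the gene given below. A second annotated start of Trim30a (match window chr7:104446104-104446133) held the motif 3 bases past it.

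Of the 68 members, 47 had counts in every library, 14 had counts in some libraries and 7 had 0 counts in all of them. The 7 at 0 were Trim15, Trim30b, Trim31, Trim32, Trim40, Trim61 and Trim69. The RefSeq spans of 4 of these (Trim30b, Trim32, Trim61 and Trim69) lie wholly inside another annotated gene, while no member with counts lies wholly inside another gene. Reads that fall on overlapping genes can be left uncounted, and the part of this in the value of 0 for these 4 was not tested. Trim10, Trim42, Trim52, Trim58, Trim60 and Trim80 had 0 to 3 counts in every library, and 25 members, including these and the 7 at 0, had at most 20 counts in every library. A level of 3 counts corresponded to 0.0430 to 0.0755 CPM.

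Per kilobase of exon, Trim28, the corepressor that KRAB zinc finger proteins recruit to chromatin, was the highest member in untreated cells, with a mean of 91.1 CPM per kb in ControlA and 80.3 CPM per kb in ControlB. Trim35, a PRY-SPRY ligase first described in blood cells, followed in ControlA at 34.1 CPM per kb. Trim8, a ligase of cytokine and NF-kB signalling, was next at 21.1 CPM per kb in ControlA and was second in ControlB at 32.1 CPM per kb. The order was different in treated cells. In ApoE4, Trim35 was first at 68.4 CPM per kb and Trim28 second at 60.3 CPM per kb. In ApoE3, Trim28 was first at 64.0 CPM per kb, Trim30a second at 55.6 CPM per kb and Trim25 next at 37.4 CPM per kb.

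With nApoE4, 19 of the 44 members tested were higher than in ControlA (43.2%, against 28.6% of all 14240 genes tested) and 14 were lower (31.8%, against 28.6%). More than 2-fold, 12 were higher and 4 lower, where 10.2% and 7.46% of all genes tested were. The median log2 fold change of the members was 0.17, against 0.0013 over all genes. With nApoE3, 15 of the 44 members tested were higher than in ControlB (34.1%, against 33.1% of 14817 genes) and 12 were lower (27.3%, against 34.6%). More than 2-fold, 12 were again higher and 4 lower, against 9.6% and 6.57% of all genes, and the median log2 fold change was −0.02. The share higher with nApoE3 was therefore near that of all genes. Some members passed the filter on low counts through a single group, Trim13 through ApoE4, Trim30c through ApoE3, Trim50 and Trim72 through ControlA and Trim43a through ControlB. Without them, 18 higher and 14 lower of 41 remained with nApoE4 and 14 and 12 of 42 with nApoE3, of which 11 and 4 with each fragment were past 2-fold. Of the 42 members tested with both fragments, 14 were higher with both (against 21.3% of the 13750 genes tested with both) and 9 were lower with both (against 22.3%). None was called in opposite directions, where 3.65% of genes were. Trim3, Trim17, Trim24 and Trim66 passed the test with nApoE4 only and had the opposite sign with nApoE3, and Trim16, Trim26, Trim50 and Trim68 had opposite signs and passed with neither.

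**Figure D1:**
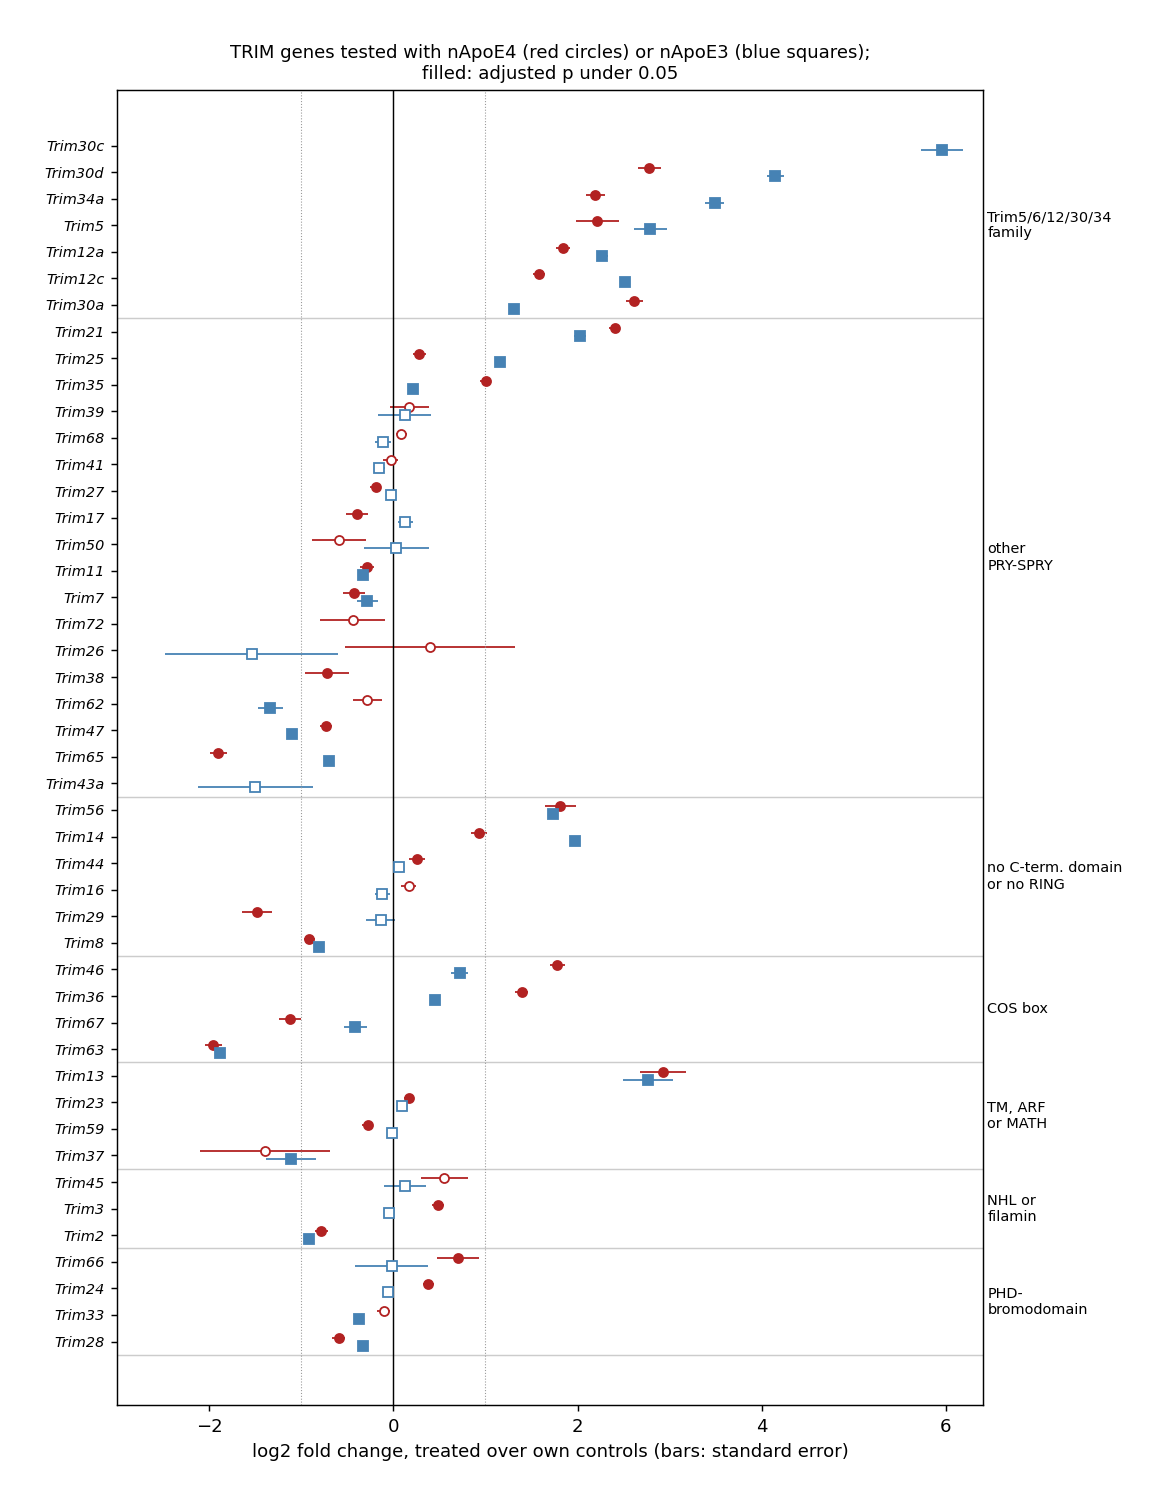
Log2 fold change (horizontal axis) of each TRIM member tested with nApoE4 (red circles, n = 3 treated and 3 control libraries) or nApoE3 (blue squares, n = 2 and 3), grouped by domain class, with bars for the standard error, dotted lines at 2-fold and filled symbols for an adjusted p under 0.05. The tested genes of the Trim5, Trim6, Trim12, Trim30 and Trim34 family lie to the right of the 2-fold line, from 1.31, with Trim30c, which passed the filter on low counts through ApoE3 alone, at 5.96.

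The Trim5, Trim6, Trim12, Trim30 and Trim34 family, PRY-SPRY proteins whose human relative TRIM5 restricts retroviral capsids, has 10 members within chr7:104218795-104507853 (GRCm38.p6). All 6 that could be tested with nApoE4 were higher by more than 2-fold, against 10.2% of all genes tested. Their median log2 fold change was 2.21 (range 1.58 to 2.78). With nApoE3, 6 that passed the filter in their controls too were higher by more than 2-fold, against 9.6% of all genes tested. Their median was 2.65 (range 1.31 to 4.15), and Trim30c, which passed through ApoE3 alone, is given apart. Trim6 held 0 to 8 counts in any library, Trim34b 0 to 9 and Trim30b 0. The difference between fragments, tested as an interaction over all 11 libraries, was called in 5 of 7 (Trim30c included), in both directions. It was positive in 1 and negative in 4 (14.3% and 57.1%, against 14.4% and 13.9% of all genes tested).

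Trim30a, which lowers NF-kB signalling through turnover of TAB2 and TAB3 in macrophages, is at chr7:104409025-104465193. Its level was 12.03, 9.92 and 12.2 CPM in ControlA and 67.8, 74.2 and 67.7 CPM in ApoE4, then 96.6, 84.8 and 94.9 CPM in ControlB and 243 and 214 CPM in ApoE3. Treated and control libraries did not overlap in either experiment, but on scales set separately in each experiment, all 3 ControlB libraries were above all 3 ApoE4 libraries. The log2 fold change was 2.62 ± 0.0885 (SE, adjusted p = 1.08e-08) with nApoE4 and 1.31 ± 0.0559 (adjusted p = 6.15e-10) with nApoE3. The difference between the fragments was 1.30 ± 0.120 (adjusted p = 5.31e-06). Between the untreated groups, Trim30a was 8.37-fold higher in ControlB than in ControlA (log2 3.07 ± 0.0908, adjusted p = 2.36e-07), the largest such value among the members tested, so the smaller change with nApoE3 started from a higher level.

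Trim30d, a neighbouring copy at chr7:104470014-104507853, did not share that difference between the controls. It measured 1.13, 0.953 and 0.985 CPM in ControlA and 6.73, 7.42 and 6.92 CPM in ApoE4, against 0.980, 0.851 and 1.09 CPM in ControlB and 17.6 and 16.8 CPM in ApoE3. Control libraries lay within a narrow range and every treated library was above its own controls. Trim30d rose 6.86-fold with nApoE4 (log2 2.78 ± 0.127, adjusted p = 8.32e-08) and 17.7-fold with nApoE3 (4.15 ± 0.0926, adjusted p = 1.5e-12), a difference of −1.38 ± 0.160 (adjusted p = 3.67e-05). Trim30d and Trim30a therefore differed between fragments in opposite directions. Of the 75-base windows in Trim30d transcripts, 5.4% also occur in another gene, mostly Trim30a, and reads from such stretches may not have been counted. With the Trim30 copies summed, which is dominated by Trim30a, the difference was 1.19, and the changes were 2.64 with nApoE4 and 1.44 with nApoE3.

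Trim30c had few counts outside ApoE3 and could be tested with nApoE3 only because of its level there. Its counts were 0, 2 and 0 in ControlA and 14, 6 and 12 in ApoE4, against 12, 4 and 4 in ControlB and 385 in both ApoE3 libraries. The ApoE3 libraries stood far above ControlB. Trim30c rose with nApoE3 by 5.96 ± 0.227 on the log2 scale (adjusted p = 2.04e-10), and by 6.58 without ControlB replicate 1. It had too few counts to be tested with nApoE4, where the ratio of summed counts scaled to depth was 17.4, with a 95% exact interval of 4.43 to 149 that covers counting error only. The interaction was −2.06 ± 1.51 (adjusted p = 0.35), and it was 0.79 without ControlA replicate 2, the only ControlA library with counts.

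Trim34a, at chr7:104244448-104262244, measured 2.83, 3.63 and 3.22 CPM in ControlA and 14.5, 15.1 and 14.8 CPM in ApoE4. In the other experiment it measured 1.89, 1.78 and 2.60 CPM in ControlB and 23.7 and 22.8 CPM in ApoE3. Both treated groups were clear of their controls, with a log2 fold change of 2.19 ± 0.103 (adjusted p = 1e-07) for nApoE4 and 3.49 ± 0.0986 (adjusted p = 1.3e-11) for nApoE3. The difference was −1.30 ± 0.171 (adjusted p = 0.000105). Of the Trim34a windows, 48.6% occur in another gene, chiefly Trim34b, and with these copies summed the changes were 2.20 and 3.46.

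The Trim12 copies and Trim5 behaved alike in direction. Trim12a, at chr7:104299893-104315558, measured 10.1, 8.94 and 10.7 CPM in ControlA and 35.2, 36.0 and 35.5 CPM in ApoE4, then 9.77, 9.53 and 11.4 CPM in ControlB and 50.6 and 47.8 CPM in ApoE3. Trim12c, at chr7:104338754-104353358, measured 10.9, 11.1 and 11.2 CPM and 33.5, 31.3 and 34.8 CPM in ControlA and ApoE4, and 12.9, 12.7 and 12.8 CPM and 74.4 and 72.2 CPM in ControlB and ApoE3. Every treated library of both genes exceeded every control library of its experiment. Trim12a rose by 1.84 ± 0.0775 (adjusted p = 4.78e-08) with nApoE4 and 2.27 ± 0.0603 (adjusted p = 7.16e-12) with nApoE3, on the log2 scale. Trim12c rose by 1.58 ± 0.0672 (adjusted p = 5.01e-08) and 2.52 ± 0.0355 (adjusted p = 3.65e-14). The difference between fragments was −0.94 ± 0.0734 (adjusted p = 1.28e-06) for Trim12c. For Trim12a it was −0.44 ± 0.11 (adjusted p = 0.00914), which was lost without ApoE3 replicate 1 (adjusted p = 0.0513). Trim5, at chr7:104263386-104288254, was low, with 0.552, 0.477 and 0.919 CPM in ControlA, 2.89, 2.84 and 3.41 CPM in ApoE4, 0.386, 0.362 and 0.468 CPM in ControlB and 2.83 and 2.77 CPM in ApoE3. Its rise was 2.22 ± 0.238 (adjusted p = 3.37e-05) with nApoE4 and 2.79 ± 0.178 (adjusted p = 2.93e-08) with nApoE3, and the difference of −0.58 ± 0.316 did not pass the test (adjusted p = 0.199). Of the Trim5 windows, 20.6% occur in another gene, most of them in Trim12c or Trim12a.

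**Figure D2:**
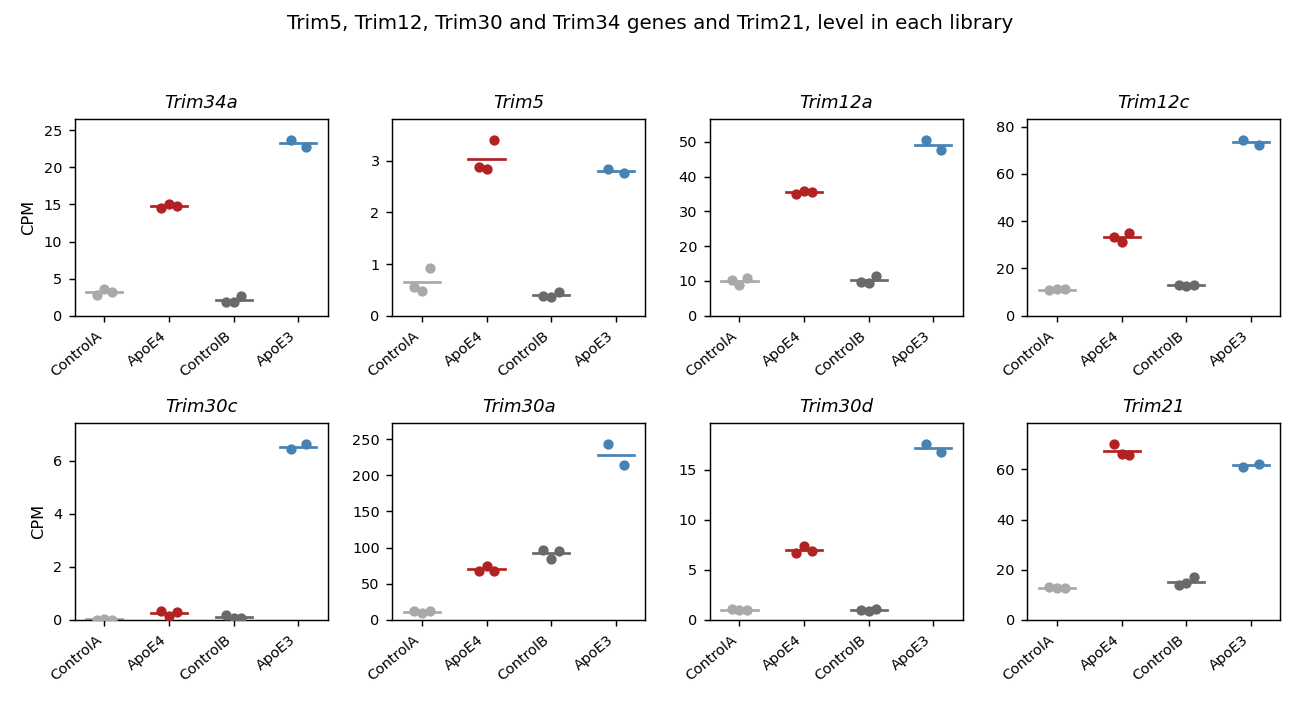
Level in CPM (vertical axes, each from 0) of 8 TRIM genes in every library, by group, with points for libraries and lines for group means. Treated libraries lie above their own controls in every panel, and among these genes Trim30a alone has ControlB libraries (84.8 to 96.6 CPM) above the ApoE4 libraries (67.7 to 74.2 CPM), on scales set within each experiment.

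A further 27 members were classed as other PRY-SPRY. That class leaves out members with a COS box or without a RING domain, such as the PRY-SPRY protein Trim14, which are given below. In it, 3 of the 17 tested with nApoE4 were higher and 7 lower. With nApoE3, 3 of the 16 tested were higher and 5 lower. These are 17.6% and 41.2% with nApoE4, against 28.6% of all genes each way, and 18.8% and 31.2% with nApoE3, against 33.1% and 34.6%. The 3 of this class that rose were the same genes with each fragment, Trim21, Trim25 and Trim35. Trim21, the cytosolic antibody receptor at chr7:102557920-102565482, measured 12.9, 12.7 and 12.6 CPM in ControlA and 70.1, 66.3 and 65.6 CPM in ApoE4, and 13.8, 14.6 and 17.2 CPM in ControlB and 61.1 and 62.2 CPM in ApoE3. The groups of each experiment were far apart, with a rise of 5.29-fold with nApoE4 (log2 2.40 ± 0.0598, adjusted p = 1.69e-09) and 4.08-fold with nApoE3 (2.03 ± 0.0629, adjusted p = 3.17e-11). The difference was 0.37 ± 0.101 (adjusted p = 0.0161), and the call was lost without ApoE3 replicate 1 (adjusted p = 0.0653) or replicate 2 (adjusted p = 0.0505).

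Trim25, the ligase that ubiquitinates the RNA sensor RIG-I, is at chr11:88999403-89020294. It measured 117, 106 and 119 CPM in ControlA and 131, 149 and 136 CPM in ApoE4, and 92.3, 96.4 and 100.2 CPM in ControlB and 215.5 and 215.3 CPM in ApoE3. Treated and control libraries did not overlap in either experiment, but the gap was wide only in the nApoE3 experiment. The log2 fold change was 0.28 ± 0.0715 (adjusted p = 0.00729) with nApoE4 and 1.16 ± 0.0313 (adjusted p = 8.22e-12) with nApoE3, and the difference was −0.89 ± 0.0864 (adjusted p = 7.81e-06).

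Trim35, at chr14:66297025-66311424, had the opposite balance. It measured 154, 159 and 159 CPM in ControlA and 312, 326 and 309 CPM in ApoE4, and 125, 123 and 126 CPM in ControlB and 147 and 143 CPM in ApoE3. It rose 2.01-fold with nApoE4 (log2 1.00 ± 0.0575, adjusted p = 3.84e-07), just past the 2-fold line, and 1.16-fold with nApoE3 (0.22 ± 0.0248, adjusted p = 6.58e-06). The difference was 0.77 ± 0.0610 (adjusted p = 1.42e-06).

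Trim56, Trim14 and Trim13 rose with both fragments. Trim56, which acts on the DNA-sensing cGAS and STING pathway, is at chr5:137111286-137116462 and measured 13.3, 7.87 and 13.5 CPM in ControlA and 42.0, 40.9 and 38.9 CPM in ApoE4. It measured 12.7, 11.9 and 11.9 CPM in ControlB and 40.7 and 40.3 CPM in ApoE3. Treated and control libraries did not overlap, and ControlA replicate 2 was the lowest control of its experiment. The log2 fold change was 1.81 ± 0.167 (adjusted p = 1.13e-05) with nApoE4 and 1.73 ± 0.0418 (adjusted p = 2.9e-12) with nApoE3, with a difference of 0.07 ± 0.199 (adjusted p = 0.845), which was −0.14 without ControlA replicate 2.

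Trim14, a PRY-SPRY protein with no RING domain that serves as an adaptor at mitochondrial MAVS, is at chr4:46505072-46536150. It measured 9.61, 10.7 and 10.7 CPM in ControlA and 19.6, 21.2 and 18.3 CPM in ApoE4, and 7.31, 7.34 and 7.35 CPM in ControlB and 28.5 and 29.2 CPM in ApoE3. Both treated groups were above their controls, by 0.93 ± 0.0847 (adjusted p = 1.02e-05) and 1.98 ± 0.0441 (adjusted p = 1.48e-12), and the difference was −1.06 ± 0.0961 (adjusted p = 4.59e-06). Of the Trim14 windows, 31.9% occur in another gene, mostly the adjoining Nans.

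Trim13, an endoplasmic reticulum ligase at chr14:61598226-61610287, was low. It measured 0.336, 0.272 and 0.219 CPM in ControlA, 2.27, 1.65 and 2.40 CPM in ApoE4, 0.207, 0.331 and 0.208 CPM in ControlB and 2.05 and 1.34 CPM in ApoE3. The treated libraries exceeded their controls in both experiments. With nApoE4 the gene passed the filter on low counts through the ApoE4 libraries alone. The log2 fold change was 2.93 ± 0.253 (adjusted p = 7.29e-06) and 2.76 ± 0.273 (adjusted p = 1.76e-06), and the difference was 0.15 ± 0.419 (adjusted p = 0.828), falling to −0.10 without ControlB replicate 2 and −0.12 without ApoE3 replicate 2. Of the Trim13 span, 61.8% overlaps the noncoding gene Dleu2, and the strand setting of the counting is not given in the sources used here, so reads from overlapping stretches could not be assigned to either gene.

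In the COS box class, whose members bind microtubules or the sarcomere, 2 of 4 tested members were higher and 2 lower with each fragment. Of all genes tested, 28.6% were higher and 28.6% lower with nApoE4, and 33.1% and 34.6% with nApoE3. A class of 4 tested genes is too small to be set apart from these shares. Trim46, which organises parallel microtubules at the start of axons, measured 6.77, 6.35 and 6.87 CPM in ControlA and 21.4, 23.8 and 23.5 CPM in ApoE4, and 5.45, 4.63 and 4.85 CPM in ControlB and 7.87 and 8.57 CPM in ApoE3. Trim36 measured 14.2, 13.5 and 13.9 CPM in ControlA and 39.1, 35.6 and 34.6 CPM in ApoE4, and 15.1, 13.3 and 14.0 CPM in ControlB and 19.2 and 19.6 CPM in ApoE3. For both genes the treated libraries were above their own controls, by more in the nApoE4 experiment. Trim46 rose by 1.78 ± 0.0796 (adjusted p = 6.98e-08) with nApoE4 and 0.72 ± 0.0896 (adjusted p = 1.47e-05) with nApoE3, and Trim36 by 1.40 ± 0.0697 (adjusted p = 1.44e-07) and 0.45 ± 0.0548 (adjusted p = 1.17e-05). The differences were 1.05 ± 0.116 (adjusted p = 2.46e-05) for Trim46 and 0.93 ± 0.0936 (adjusted p = 1.06e-05) for Trim36.

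**Figure D3:**
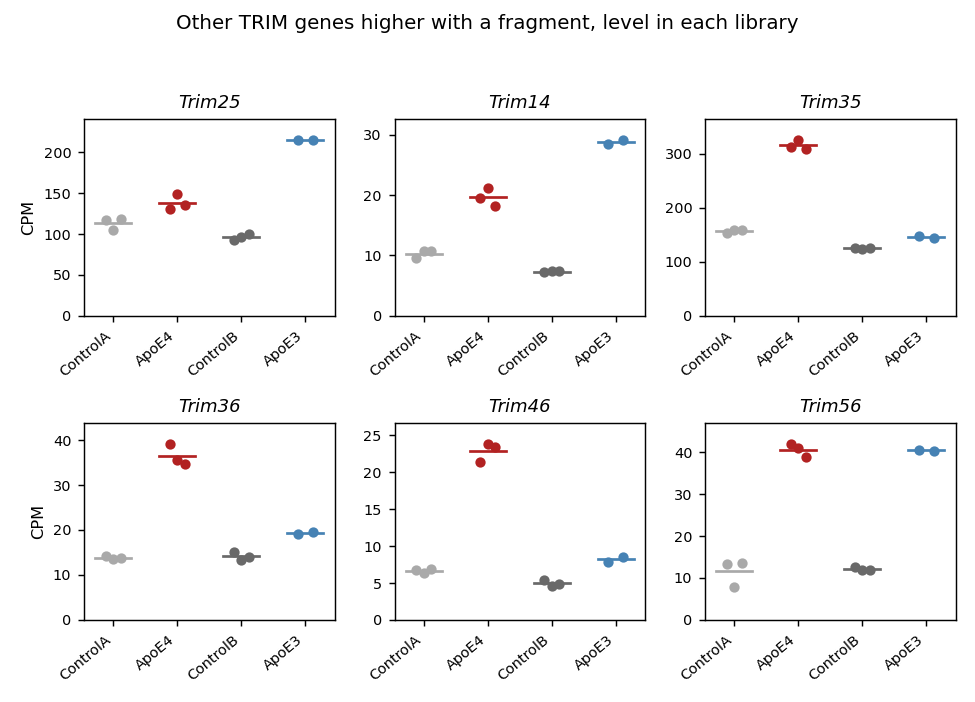
Level in CPM (vertical axes, each from 0) of 6 further members that rose with both fragments, in every library, with lines for group means. Trim25 and Trim14 stood further above their controls in ApoE3 (Trim25 at 215.5 and 215.3 CPM), and Trim35, Trim36 and Trim46 in ApoE4.

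Trim63 fell the most with each fragment of the members called, and Trim65 was next with nApoE4. Trim63 (MuRF1), a COS box ligase known for the turnover of muscle proteins, is at chr4:134315120-134329629. It measured 11.8, 12.9 and 12.2 CPM in ControlA and 3.15, 3.28 and 3.10 CPM in ApoE4, and 19.8, 19.9 and 20.6 CPM in ControlB and 5.45 and 5.40 CPM in ApoE3. The groups were far apart in both experiments, although the controls differed by 1.69-fold. It was 3.88-fold lower with nApoE4 (log2 −1.95 ± 0.0908, adjusted p = 9.01e-08) and 3.70-fold lower with nApoE3 (−1.89 ± 0.0535, adjusted p = 1.34e-11), a difference of −0.08 ± 0.0953 (adjusted p = 0.588). Muscle markers summed to 0.336 to 1.32 CPM over the libraries.

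Trim65, which ubiquitinates the RNA sensor MDA5, is at chr11:116124708-116131413. It measured 13.9, 13.4 and 15.1 CPM in ControlA and 4.06, 3.75 and 3.56 CPM in ApoE4, and 12.02, 11.97 and 12.13 CPM in ControlB and 7.44 and 7.36 CPM in ApoE3. Both treated groups lay below their controls without overlap. The log2 fold change was −1.90 ± 0.0957 (adjusted p = 1.53e-07) with nApoE4 and −0.70 ± 0.0555 (adjusted p = 2.19e-07) with nApoE3, a difference of −1.21 ± 0.105 (adjusted p = 3.01e-06).

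Trim47, a PRY-SPRY member on the same stretch of chromosome 11 (chr11:116105750-116110235), leaned the other way. It measured 24.3, 25.6 and 23.9 CPM in ControlA and 15.5, 14.6 and 14.5 CPM in ApoE4, and 22.6, 22.3 and 20.6 CPM in ControlB and 10.3 and 10.1 CPM in ApoE3. It fell by 0.73 ± 0.0667 (adjusted p = 1.08e-05) with nApoE4 and 1.10 ± 0.0547 (adjusted p = 2.65e-09) with nApoE3, and the difference was 0.36 ± 0.0858 (adjusted p = 0.00704).

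Of the remaining members past 2-fold in the lower direction, Trim29 and Trim67 were so with nApoE4 and Trim62 and Trim37 with nApoE3. Trim29, a member with no RING domain that dampens innate immune responses in macrophages, measured 3.44, 4.15 and 4.49 CPM in ControlA and 1.67, 1.36 and 1.29 CPM in ApoE4, against 2.17, 1.89 and 2.51 CPM in ControlB and 2.08 and 1.89 CPM in ApoE3. It was lower in all ApoE4 libraries, while the ApoE3 libraries lay within the range of ControlB. The log2 fold change was −1.48 ± 0.165 (adjusted p = 4.35e-05) and −0.14 ± 0.157 (adjusted p = 0.465), and the difference was −1.36 ± 0.231 (adjusted p = 0.000733). Trim62 showed the reverse, at 3.80, 3.06 and 3.57 CPM in ControlA, 2.39, 3.30 and 2.89 CPM in ApoE4, 4.39, 4.84 and 5.41 CPM in ControlB and 2.101 and 1.76 CPM in ApoE3. The ControlA and ApoE4 libraries overlapped and those of the other experiment did not. Its log2 fold change was −0.28 ± 0.156 (adjusted p = 0.153) and −1.33 ± 0.135 (adjusted p = 2.23e-06), with a difference of 1.04 ± 0.214 (adjusted p = 0.00276).

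Trim67, a COS box member best known in neurons, measured 5.43, 5.15 and 6.04 CPM in ControlA, 2.65, 2.34 and 2.63 CPM in ApoE4, 3.30, 2.95 and 3.15 CPM in ControlB and 2.45 and 2.25 CPM in ApoE3. The treated libraries were below their controls in both experiments, by more with nApoE4. Its log2 fold change was −1.12 ± 0.120 (adjusted p = 3.23e-05) with nApoE4 and −0.41 ± 0.124 (adjusted p = 0.0107) with nApoE3, a difference of −0.72 ± 0.160 (adjusted p = 0.00448). The nApoE3 call was lost without ApoE3 replicate 2 (adjusted p = 0.0786). Trim37, a MATH-domain ligase of centrosomes and peroxisomes, held 25, 110 and 13 counts in ControlA, 22, 20 and 10 in ApoE4, 60, 47 and 36 in ControlB and 24 and 16 in ApoE3. ControlA replicate 2 stood apart. It was −1.39 ± 0.704 (adjusted p = 0.12) on the log2 scale with nApoE4, −0.04 without that library, and fell by 1.11 ± 0.270 (adjusted p = 0.00292) with nApoE3. The nApoE4 value passed the test without ControlA replicate 3 (−1.86, adjusted p = 0.0128).

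**Figure D4:**
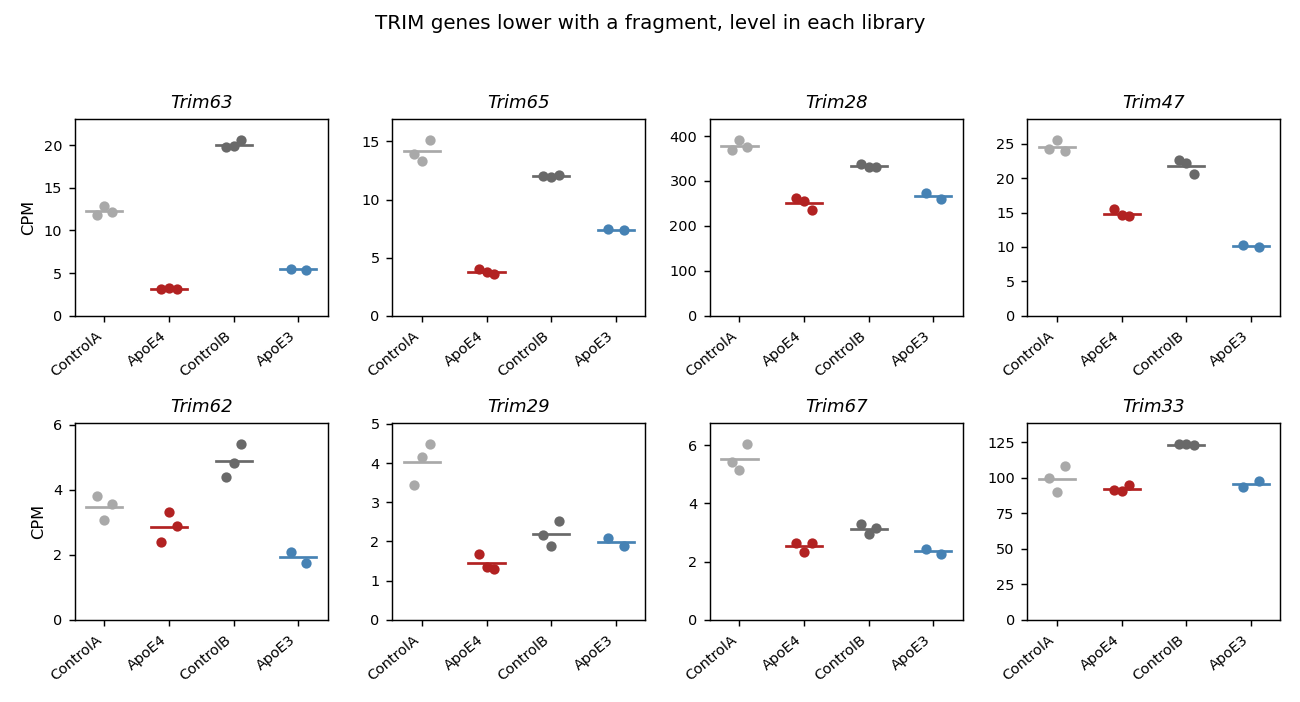
Level in CPM (vertical axes, each from 0) in every library of 8 members that were lower with at least 1 fragment, with lines for group means. Trim63 was lower with both fragments (3.10 to 3.28 CPM in ApoE4 and 5.40 to 5.45 CPM in ApoE3), Trim29 with nApoE4 and Trim62 with nApoE3.

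Of the 5 members with the most counts, Trim35 and Trim25 are described above, and Trim28, Trim33 and Trim27 moved by less than 2-fold. Trim28, at chr7:13024152-13031032, measured 368.5, 391.6 and 376.3 CPM in ControlA and 262, 255 and 235 CPM in ApoE4, and 338, 332 and 332 CPM in ControlB and 272 and 260 CPM in ApoE3. Every treated library was below every control, with a fall of 0.60 ± 0.0656 (adjusted p = 4.01e-05) with nApoE4 and 0.33 ± 0.0245 (adjusted p = 1.31e-07) with nApoE3 on the log2 scale. The difference of −0.28 ± 0.0738 (adjusted p = 0.0125) was lost without ApoE3 replicate 1 (adjusted p = 0.083). Trim33, a PHD-bromodomain regulator of TGF-beta signalling, measured 99.6, 89.9 and 108 CPM in ControlA, 91.4, 90.7 and 94.5 CPM in ApoE4, 123, 124 and 123 CPM in ControlB and 93.2 and 97.4 CPM in ApoE3. The first 2 groups overlapped and the others did not. It was −0.11 ± 0.0731 (adjusted p = 0.242) with nApoE4, which passed the test without ControlA replicate 2 (adjusted p = 0.0148), and fell by 0.37 ± 0.0274 (adjusted p = 1.15e-07) with nApoE3. Its difference of 0.25 ± 0.0866 (adjusted p = 0.0446) was lost when any of 8 libraries was left out, with adjusted p up to 0.171 (without ApoE3 replicate 1). Those libraries were ControlA replicate 1, ApoE4 replicates 1 and 3, the 3 of ControlB and the 2 of ApoE3.

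Trim27, a PRY-SPRY ligase of endosomes and the nucleus, measured 107, 118 and 106 CPM in ControlA, 99.2, 95.7 and 95.2 CPM in ApoE4, 141, 140 and 140 CPM in ControlB and 142 and 135 CPM in ApoE3. All ApoE4 libraries were below ControlA, while ApoE3 and ControlB overlapped. It fell by 0.19 ± 0.0627 (adjusted p = 0.0257) with nApoE4, a call lost without ApoE4 replicate 1, 2 or 3 (adjusted p = 0.055, 0.0693 and 0.0931), and was −0.02 ± 0.0273 (adjusted p = 0.471) with nApoE3. Smaller changes made up the rest. Trim8 and the NHL-repeat ligase Trim2 were lower with both fragments, Trim8 by 0.91 and 0.81 and Trim2 by 0.78 and 0.92 in log2 fold change with nApoE4 and nApoE3. Trim7 and Trim11 were also lower with both. Trim3, Trim23, Trim24, Trim44 and Trim66 rose with nApoE4 by 0.17 to 0.70 and did not pass the test with nApoE3, where Trim3 was −0.05 and Trim24 −0.05. Trim17 and Trim59 were lower with nApoE4 and did not pass with nApoE3, and Trim38, tested with nApoE4 alone, was lower there by 0.72. Trim16, Trim26, Trim39, Trim41, Trim45, Trim50 and Trim68 passed the test with neither fragment. Trim26 held 10 to 23 counts in 8 libraries and 77, 96 and 161 in ControlA replicate 2, ApoE4 replicate 3 and ControlB replicate 1.

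The interaction asked which members changed differently in the nApoE4 and nApoE3 experiments. The spread between libraries, as a common coefficient of variation over all genes, was 0.0838 in the nApoE4 fit and 0.0262 in the nApoE3 fit. Calls with the fragments were therefore made against unlike spreads. The interaction fit pooled all groups, at 0.0666, so its standard errors do not give the spread of either experiment alone. It was called in 22 of the 47 members tested, with 10 larger for nApoE4 (21.3%, against 14.4% of 15287 genes) and 12 smaller (25.5%, against 13.9%). A positive value means a higher fold change with nApoE4, whether the gene rose or fell. Past 2-fold, the positive members were Trim30a, Trim46 and Trim62, and the negative ones were Trim30d, Trim29, Trim34a, Trim65 and Trim14. Of all 15287 genes tested, 394 were positive and 512 negative past 2-fold. Of the called members that rose with both fragments, Trim12a, Trim12c, Trim14, Trim25, Trim30d and Trim34a rose more with nApoE3, and Trim21, Trim30a, Trim35, Trim36 and Trim46 rose more with nApoE4.

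The untreated groups also differed. Of 44 members tested, 12 were higher in ControlB than in ControlA (27.3%, against 34.4% of 14249 genes) and 19 were lower (43.2%, against 34.9%). More than 2-fold, 770 of all 14249 genes tested were higher in ControlB and 1781 lower. Of the members, Trim30a was the only one more than 2-fold higher. Trim38, Trim66, Trim68 and Trim72 were more than 2-fold lower, with Trim38 at 29, 44 and 40 counts in ControlA and 7, 9 and 5 in ControlB (log2 −2.91 ± 0.278, adjusted p = 3.62e-05). Of the 19 lower, Trim38, Trim66 and Trim72 passed the filter on low counts through ControlA alone.

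**Figure D5:**
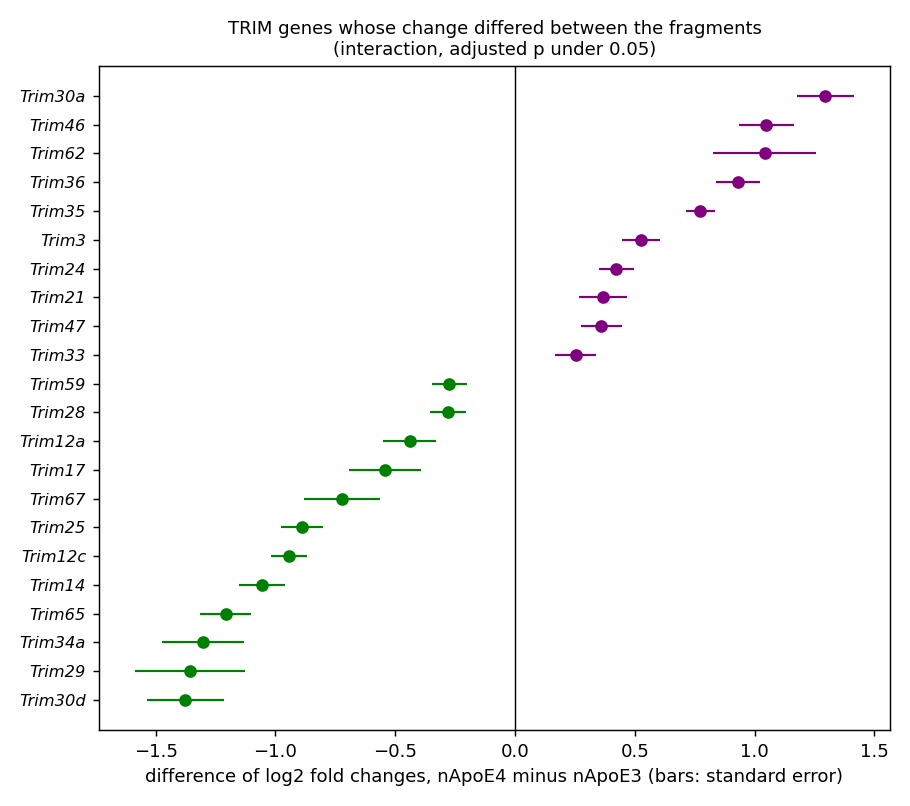
Difference between the log2 fold changes, nApoE4 minus nApoE3 (horizontal axis), of the 22 members called in the interaction, with bars for the standard error. Values run from −1.38 for Trim30d to 1.30 for Trim30a, with 10 members above 0 and 12 below.

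The promoter motif can be set beside these calls. Of the 12 members more than 2-fold higher with nApoE4, 10 had a RefSeq window and 7 of them held the ISRE-like motif. With nApoE3, 11 of 12 had a window and the same 7 members held it. Trim2, which was lower with both fragments, and Trim26, which passed neither test, held it too, and no other member with a window did. A second motif, TTCNNNGAA, the gamma-activated site that STAT dimers bind, was in 6 of 53 members, against 8.49% of the genes tested in both experiments, and the NF-kB consensus was in 5, against 12.2%. Trim46 held both of these. A match describes letters in a window and is not a binding site.

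Partners of the TRIM genes were taken from 4 lists. These lists were chosen with earlier results of these data known, so the shares below are descriptions and not tests. The background of all genes was 28.6% higher and 28.6% lower with nApoE4, and 33.1% and 34.6% with nApoE3. Among 12 genes for TRIM and TRIM-like proteins under other symbols, 3 of 5 tested were higher and none lower with nApoE4, and 4 of 6 were higher and 1 lower with nApoE3. Pml, the scaffold of nuclear bodies, was −0.12 ± 0.0920 (adjusted p = 0.279) on the log2 scale with nApoE4 and rose by 1.07 ± 0.0424 (adjusted p = 3.17e-10) with nApoE3. The microtubule ligase Mid1 rose by 0.36 ± 0.131 and 1.63 ± 0.0529 with nApoE4 and nApoE3, while its relative Mid2 rose by 0.26 ± 0.0964 with nApoE4 and fell by 0.91 ± 0.0670 with nApoE3. The differences were −1.20, −1.28 and 1.16 for Pml, Mid1 and Mid2, each with an adjusted p of 4.72e-05 or lower. Mefv (pyrin), counted as higher with each fragment, passed the filter on low counts through the treated libraries alone. Its mean was 0.0231 CPM in ControlA and 0.422 CPM in ApoE4 (log2 4.04 ± 0.618, adjusted p = 0.000365). It had 0 counts in ControlB and was at least 7.22-fold higher with nApoE3, against a floor of 3 counts per library. Its difference between the fragments did not pass the test (adjusted p = 0.133).

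Of 20 sensors, kinases and other partners of RIG-I and NF-kB signalling, 14 were higher and 2 lower with nApoE4, and 16 were higher and 3 lower with nApoE3 (70% and 10%, then 80% and 15%). Ddx58, which encodes RIG-I, rose by 3.16 ± 0.0804 and 4.12 ± 0.0929, and Irf7, the transcription factor that amplifies type I interferon, by 3.89 ± 0.0893 and 5.33 ± 0.0948. Ikbke, an interferon pathway kinase, rose by 4.43 ± 0.107 and 3.01 ± 0.0406. Mavs, the mitochondrial adaptor, fell by 0.33 ± 0.0535 and 0.62 ± 0.0281, and Tmem173, which encodes STING, fell by 0.82 ± 0.0682 and 0.36 ± 0.0309. Of ubiquitin ligases outside the family, 21 of 31 were higher and 3 lower with nApoE4, and 21 of 32 were higher and 8 lower with nApoE3 (67.7% and 9.68%, then 65.6% and 25%). Peli3, counted as higher with each fragment, passed the filter on low counts through the treated libraries alone. Its mean was 0.239 CPM in ControlA and 2.77 CPM in ApoE4, and 0.0462 CPM in ControlB and 0.980 CPM in ApoE3. Rnf213, a giant ligase of antimicrobial defence, rose by 3.89 ± 0.304 and 3.89 ± 0.0580. Of the ubiquitin E1 and E2 enzymes, 15 of 32 were higher and 5 lower with nApoE4, and 21 were higher and 4 lower with nApoE3 (46.9% and 15.6%, then 65.6% and 12.5%). The largest rises with nApoE4 were those of Ube2e2 (1.41 ± 0.0812) and Ube2f (1.22 ± 0.0853), which rose by 1.91 ± 0.0435 and 1.30 ± 0.0342 with nApoE3. Uba7 and Ube2l6, the enzymes that charge and carry the ubiquitin-like ISG15, rose by 1.04 ± 0.0742 and 1.07 ± 0.0812 with nApoE4. With nApoE3 they rose by 1.91 ± 0.0442 and 1.67 ± 0.0380.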

How the data were processed

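RNA of BV2 cells was sequenced as single-end reads of 75 bp. Per the labels and the methods of the study, the authors removed adapters (Trim Galore 0.5.0), assessed read quality (FastQC 0.11.8), aligned to GRCm38.p6 (HISAT2 2.1.0) and deposited unnormalised per-gene read counts (HTSeq 0.11.0). The annotation release, strand setting and overlap mode are not given in the sources used here. Gene counts were 76.0 to 77.7% of tallied reads, 11.7 to 13.2% were not unique and 3.24 to 3.56% were ambiguous between genes. These tallies entered no library size.

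Counts were analysed in R 4.3.3 with edgeR 4.0.16 (filterByExpr, TMM, quasi-likelihood F test, Benjamini-Hochberg adjustment over all genes tested, threshold 0.05). ApoE4 was tested against ControlA, ApoE3 against ControlB, the fragments by an interaction over all 11 libraries, and ControlB against ControlA. Standard errors are approximate, taken as the absolute change over the root of F. CPM were scaled by TMM within each experiment, so levels across experiments were normalised separately, and exon lengths came from GENCODE M21. The tests were tried on simulated counts, with the same spread in every comparison and no difference between the experiments. That trial therefore does not cover the unlike spreads and untreated levels of these data. Members given with values in every library were those past 2-fold (adjusted p under 0.05) in a fragment comparison or in the interaction, and the 5 with the most counts. The family and the lists were chosen with earlier results of these data known, although the symbol rule itself uses no measured value. Alternatives were DESeq2 1.42.0, its size factors, filters of at least 1 count or 10 counts in every library, thinned counts (seed 20200813), 1 fit of all libraries, a replicate block, a 2-fold threshold, leaving out each library and, added after seeing the data, merged copies.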

Additional observations from a re-analysis of the deposited data

Results flagged for a closer look

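Of the members given with values in every library, 18 had changes that differed between the fragments by the test of the interaction (nApoE4 minus nApoE3, log2). Fragment and experiment cannot be told apart in these values. Of the chromosome 7 genes that rose with both fragments, Trim30a was at 1.30 and Trim21 at 0.37, while Trim12a was at −0.44, Trim12c at −0.94, Trim34a at −1.30 and Trim30d at −1.38. Of the other members that rose with both fragments, Trim46 was at 1.05, Trim36 at 0.93 and Trim35 at 0.77, while Trim25 was at −0.89 and Trim14 at −1.06. Of the members that were lower with at least 1 fragment, Trim62 was at 1.04, Trim47 at 0.36 and Trim33 at 0.25, while Trim28 was at −0.28, Trim67 at −0.72, Trim65 at −1.21 and Trim29 at −1.36. The groups held 2 or 3 libraries, too few for a test of single outlying libraries.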

How the results depend on the processing

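Requiring a fold above 2 left 12 higher and 4 lower members with nApoE4, 12 and 4 with nApoE3, 3 and 5 in the interaction and 1 and 4 between the controls. Under the other alternatives each count stayed within 1.5 times its value. Of 1345 values of the named members under alternatives, 1279 kept their direction and side of the threshold, 40 lost the call, 7 gained it and 19 changed sign. With near-identical copies merged, which puts Trim30a in the sum, the interaction of Trim30c and Trim30d was 1.19 and the control difference of Trim30d 2.96. With thinned counts, the Trim13 interaction was −0.19 and the Trim30d control difference 0.0281. Leaving out each library gave changes of sign in values that did not pass the test, except that the Trim37 control difference passed without ControlA replicate 2 (0.80, adjusted p = 0.04). The interaction ranged from −0.12 to 0.49 for Trim13, −2.68 to 0.79 for Trim30c, −0.76 to 1.07 for Trim37 and −0.14 to 0.20 for Trim56. The control difference ranged from −0.34 to 0.0689 for Trim13, −0.10 to 0.0784 for Trim30d, −1.03 to 0.80 for Trim37 and −0.087 to 0.25 for Trim56, and Trim27 with nApoE3 from −0.0601 to 0.0129. The Trim67 call with nApoE3 was lost with DESeq2 (adjusted p = 0.0518) and thinned counts (adjusted p = 0.0568), and that of Trim37 with all libraries in 1 fit (adjusted p = 0.199).

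Replicate numbers were shared by treated and control libraries, but nothing states that they mark pairs, and libraries of the same number correlated at −0.25 to 0.00843 around their group means. With a replicate block, 16 members were higher and 12 lower with nApoE4, 15 and 13 with nApoE3, and 8 and 9 in the interaction. The calls of Trim27 with nApoE4 (adjusted p = 0.0828) and of the interactions of Trim21, Trim28 and Trim33 (adjusted p = 0.0818, 0.107 and 0.115) were lost, and the Trim37 interaction was 0.0870. The cause of these changes was not tested. With 2 ApoE3 libraries, leaving either out left a lone library, assumed to vary like the others. Too few counts left 21 members in no test.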
